A study of Mus musculus with 12 samples.

Results

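Transcripts of 8 receptor genes for chemokines and related attractants, Cx3cr1, Ccr1, Ccr2, Cxcr4, Ccrl2, Cmklr1, Ccr6 and Cxcr3, were followed in sorted mouse microglia and central nervous system (CNS) macrophages with and without Tgfbr2. The genes were taken by symbol from a table of 25904 genes, all 8 were present, and 7 had enough signal for a test. RNA-seq libraries of C57BL/6 cells fell into 4 groups of 3. WT microglia came from Tgfbr2fl/fl mice, which lack Cre, and KO microglia from Cx3cr1CreER/+Tgfbr2fl/fl mice, in which a tamoxifen-activated Cre sits on 1 allele of Cx3cr1 itself. Both received 3 daily subcutaneous doses of 5 mg tamoxifen, and brain and spinal cord cells were sorted after 18 to 22 days. WT and KO macrophages grew from bone marrow of those same 2 genotypes in irradiated Cx3cr1CreER/+R26DTA/+ hosts, whose microglia were depleted by the same tamoxifen course 6 weeks after the transplant, so every host carried CreER and a diphtheria toxin allele whatever the donor. Viable cells that carried CD11b and lacked Ly6C were sorted, with an F4/80 gate set low for WT and high for KO groups, and no donor marker was named. Genotype, the CreER allele and the F4/80 gate changed together between WT and KO, so their shares in any difference cannot be told apart. Cell origin changed together with irradiation, transplant, host genotype and microglial depletion. What is called an origin difference below cannot be told apart from these.

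Chemokine receptors are G protein-coupled receptors that steer leukocytes along gradients of secreted or membrane-bound ligands. Microglia are known for high Cx3cr1, the receptor for the neuronal ligand fractalkine, whereas Ccr2 is typical of monocytes leaving the bone marrow and Cxcr4 of cells held there by Cxcl12. The type II TGF-beta receptor is the product of Tgfbr2, and microglia need TGF-beta to keep their typical gene expression.

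Values below are normalized counts, that is gene reads divided by a library size factor, with the SD over 3 libraries. Differences are on the log2(normalized count + 1) scale with their SE, and adjusted p-values are from limma with a threshold of 0.05. Libraries held 2615404 to 6364994 reads in genes, so 1 read was worth 0.718 to 1.60 normalized counts. The targeted gene Tgfbr2 averaged 2898 ± 356 (WT) and 2193 ± 100 (KO) in microglia, 3303 ± 267 (WT) and 2235 ± 209 (KO) in macrophages, and whole-gene counts do not resolve its deleted exons. KO macrophage replicate 1 stood somewhat apart, with a mean Pearson r across genes of 0.951 with its own group. Since 1 to 5 mice were pooled for a library, p-values measure how pools spread. In bulk RNA, fewer cells of a type and less RNA per cell cannot be told apart. Of 8 microglial marker genes the summed level ranged from 57234 to 75089 for WT and from 5281 to 5812 for KO microglia. It ranged from 19216 to 20182 for WT and from 5881 to 6742 for KO macrophages, so KO microglia held little of the transcripts that usually define that cell type. Markers of CNS macrophages other than microglia, such as Mrc1, Cd163 and Pf4, ran the other way. All 7 were called higher in KO microglia and 6 in KO macrophages, where 21.9% and 16.0% of all tested genes were. Their summed level was 93.1 to 112 for WT and 19542 to 23927 for KO microglia, then 6013 to 7254 for WT and 18299 to 18545 for KO macrophages, and none was at 0 reads in any group. The part of such cells, or of such a state, in the receptor differences below was not tested.

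Over all pairs of groups, Cx3cr1, Ccr1 and Cxcr4 had the largest log2 differences among the receptors. That of Ccr1 was -5.60, in KO microglia against WT macrophages. In KO against WT microglia the low Cxcr3 differed about as much as Ccr1, at 2.63 and -2.60. Cx3cr1 and Ccr1 were lower in both KO groups, while Cxcr4 went up in KO microglia and down in KO macrophages. The 250 bases upstream of their start sites are shown so that these genes can be compared at the sequence level. They are from RefSeq on GRCm38.p6, written 5′ to 3′ along the gene's strand, and capitals mark CAGAC or its reverse complement GTCTG, the core letters that SMAD proteins of the TGF-beta pathway can bind.
Cx3cr1: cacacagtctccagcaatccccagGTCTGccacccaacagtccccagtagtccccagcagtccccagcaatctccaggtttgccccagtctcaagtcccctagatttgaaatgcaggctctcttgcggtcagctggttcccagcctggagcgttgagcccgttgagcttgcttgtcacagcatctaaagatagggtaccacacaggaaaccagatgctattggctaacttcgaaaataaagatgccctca
Ccr1: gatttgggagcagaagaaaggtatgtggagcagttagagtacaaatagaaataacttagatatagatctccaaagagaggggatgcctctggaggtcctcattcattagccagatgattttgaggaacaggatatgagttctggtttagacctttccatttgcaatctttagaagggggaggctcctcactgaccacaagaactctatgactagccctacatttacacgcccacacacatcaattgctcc
Cxcr4: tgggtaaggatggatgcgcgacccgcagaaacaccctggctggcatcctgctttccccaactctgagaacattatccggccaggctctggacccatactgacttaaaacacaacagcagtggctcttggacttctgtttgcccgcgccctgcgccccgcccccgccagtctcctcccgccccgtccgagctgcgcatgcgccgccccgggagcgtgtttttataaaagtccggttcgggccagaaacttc
The Cx3cr1 stretch is chr9:120068297-120068546, minus strand, and holds 1 match near its 5′ end. A second match begins 30 bases after the start, outside the printed stretch. The Ccr1 stretch, chr9:123968693-123968942, and the Cxcr4 stretch, chr1:128592300-128592549, both on the minus strand, hold none, and neither do the 50 bases after their starts. Matches are common, since 49.6% of all 32851 RefSeq windows reaching from 250 bases before to 50 after a start hold CAGAC on either strand. Cmklr1 had 3 such matches in its window. Ccr6 had 1 in window 1 and 1 in window 2, and Ccrl2 had 1 in each of its overlapping windows 2 and 3. The windows of Ccr2 and Cxcr3 held none. The letters GGAAGT or ACTTCC, the core of sites for ETS factors such as PU.1, were found in 23.8% of all windows. They occurred at 2 places in the window of Cxcr3 and at 1 place in window 1 of Ccr6. TGANTCA, the core of AP-1 sites, was found in 7.81% of all windows and in none of the windows of the 8 genes. A match describes the letters only, and no match says no more than that these letters are not in this window.

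Cx3cr1 (ENSMUSG00000052336, chromosome 9, 119901616 to 120069879, minus strand, GRCm38) was the most abundant of the 8 in WT microglia and lost most of its transcript in both KO groups. WT microglia held normalized counts of 21676, 19670 and 16231, against 625, 420 and 398 for KO microglia. WT macrophages held 8268, 7169 and 8319, against 1359, 1518 and 1452 for KO macrophages. No library of a group overlapped with one of another group. In KO microglia Cx3cr1 fell by 5.34 ± 0.15 (log2) (limma, adjusted p = 2.55e-13) and by 2.45 ± 0.15 in KO macrophages (limma, adjusted p = 1.29e-08). KO libraries held 2.07% to 3.25% of the WT mean in microglia and 17.2% to 19.2% in macrophages.

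The Cx3cr1 fall was also tested against a size of 1 log2 unit. It went beyond that size in KO microglia (limma treat, adjusted p = 2.81e-12) and in KO macrophages (limma treat, adjusted p = 6.97e-06). Of all genes tested, 5.22% fell beyond 1 log2 unit by that test in microglia and 1.37% in macrophages. Whether reads from the CreER allele count toward Cx3cr1 is not given in the sources used here, and the part of that allele in the fall was not tested. The fall was 2.88 ± 0.21 smaller in macrophages than in microglia on the log2 scale (limma interaction, adjusted p = 1.03e-07). The 4 groups ran in the order WT microglia, WT macrophages, KO macrophages, KO microglia, and each neighbouring pair differed. The annotated gene body overlaps part of Wdr48 and spans Gorasp1, Ttc21a, Csrnp1 and Xirp1. Of these, Wdr48 stood at 279 ± 18.2 in WT and 283 ± 16.5 in KO microglia, and the low Xirp1 at 15.3 ± 5.80 and 1.85 ± 1.00.

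Among the receptors of inflammatory CC chemokines, Ccr1 and Ccr2 moved in different ways although they lie 0.133 Mb apart on chromosome 9. Ccr1 (ENSMUSG00000025804, chromosome 9, 123962124 to 123968692, minus strand), a receptor for Ccl3, Ccl6 and Ccl9, was foremost a macrophage transcript. WT microglia held 97.8, 59.3 and 65.2, against 15.7, 9.83 and 8.84 for KO microglia. The WT macrophage libraries held 609, 517 and 645 and the KO ones 109, 154 and 115. WT and KO libraries did not overlap in either cell origin. Ccr1 fell by 2.60 ± 0.23 in KO microglia (limma, adjusted p = 1.67e-07) and by 2.23 ± 0.23 in KO macrophages (limma, adjusted p = 2.85e-06). The difference between the 2 falls was 0.36 on the log2 scale (95% interval -0.32 to 1.05, limma interaction adjusted p = 0.442), which does not show that they were equal.

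Ccr1 kept an origin difference within each genotype. It was 3.01 ± 0.23 higher in WT macrophages than in WT microglia (limma, adjusted p = 5.45e-08) and 3.37 ± 0.23 higher in KO macrophages than in KO microglia (limma, adjusted p = 1.36e-07). The order was WT macrophages, KO macrophages, WT microglia, KO microglia. Its middle step, between KO macrophages and WT microglia, was small at 0.77 ± 0.23 (limma, adjusted p = 0.0116), in a comparison that called 43.9% of all genes. That step was not called without WT microglia replicate 2 (0.63, adjusted p = 0.0593) or KO macrophage replicate 2 (0.62, adjusted p = 0.0581).

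Ccr2 (ENSMUSG00000049103, chromosome 9, 124101950 to 124113557, plus strand), the receptor for Ccl2 that draws monocytes out of the marrow, was low in WT microglia and higher elsewhere. The WT microglia libraries held 31.7, 45.1 and 21.7, and the KO ones 141.4, 112 and 137. The WT macrophage libraries held 206, 184 and 153, and the KO ones 146, 262 and 338. WT microglia lay below all other groups, whereas the KO macrophage libraries spanned the WT ones. Ccr2 rose by 2.0 ± 0.28 in KO microglia (limma, adjusted p = 2.61e-05). In KO macrophages the difference was 0.38 ± 0.28 (limma, adjusted p = 0.319), and without KO macrophage replicate 1, the lowest of its group, it was 0.72 (limma, adjusted p = 0.0276).

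Between origins, Ccr2 was 2.48 ± 0.28 higher in WT macrophages than in WT microglia (limma, adjusted p = 4.06e-06). Between KO macrophages and KO microglia the difference was 0.85 ± 0.28 (limma, adjusted p = 0.0672). It was called with a pseudocount of 5 (0.83, adjusted p = 0.0485), with voom weights on the reads (0.95, adjusted p = 0.00751) and without KO macrophage replicate 1 (1.19, adjusted p = 0.00177). It was also called without WT microglia replicate 2 or 3 (adjusted p = 0.0494 and 0.0421), libraries outside that pair of groups that share its estimate of spread. The KO effect was 1.62 ± 0.39 lower in macrophages than in microglia (limma interaction, adjusted p = 0.00688). Neighbours in the order KO macrophages, WT macrophages, KO microglia did not differ beyond their spread, and WT microglia came last. The pair of WT macrophages and KO microglia, where 35.1% of all genes were called, did differ in a fit on these groups alone (-0.47, limma adjusted p = 0.0117). Monocyte markers were near 0: of 7 listed, 6 were in the table, and their summed level was 1.03 to 3.53 for WT and 6.43 to 10.8 for KO microglia. For WT and KO macrophages it was 3.64 to 11.4 and 5.75 to 17.6, and Ly6c2 was at 0 reads in all groups but KO macrophages. Since the sort took cells lacking Ly6C, low Ly6c2 was partly set by the gate. Of 5 tested dendritic cell markers, 3 were higher in KO microglia and 1 lower, beside 21.9% and 20.6% of all tested genes. All 7 listed summed to 56.9 to 109 in WT and 120 to 152 in KO microglia. In WT and KO macrophages they summed to 50.1 to 65.0 and 91.2 to 127. The part of monocytes and dendritic cells in the Ccr2 values was not tested. Of 6758 stretches of 50 bases in Ccr2 transcripts, 129 (1.91%) also occur in transcripts of other genes, so a small part of the reads may not be told apart.

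Cxcr4 (ENSMUSG00000045382, chromosome 1, 128588199 to 128592293, minus strand), the Cxcl12 receptor that retains cells in the marrow, changed in opposite directions in the 2 origins. It was nearly missing from WT microglia, at 3.53, 3.87 and 3.10 from 4, 3 and 3 reads. With the KO it reached 94.3, 85.5 and 95.7. Log2 sizes measured against WT microglia therefore depend on the pseudocount of 1. Macrophages had 689, 726 and 650 as WT, but 458, 277 and 306 as KO. All 4 groups were separate, with macrophages of either genotype above microglia of either genotype. Cxcr4 rose by 4.37 ± 0.17 in KO microglia (limma, adjusted p = 1.48e-11) and fell by 1.02 ± 0.17 in KO macrophages (limma, adjusted p = 0.000332). The rises of Cxcr4, Ccr2 and Cxcr3 were in KO microglia libraries whose summed CNS macrophage markers reached 19542 to 23927, and the part of such cells was not tested. The interaction was -5.39 ± 0.24 (limma, adjusted p = 5.06e-10). The origin difference was 7.26 ± 0.17 in WT cells (limma, adjusted p = 7.73e-14) and 1.87 ± 0.17 in KO cells (limma, adjusted p = 3.46e-06).

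Cmklr1 and Ccrl2 both bind chemerin, but only the former signals, while Ccrl2 presents the ligand to other cells. Cmklr1 (ENSMUSG00000042190, chromosome 5, 113612354 to 113650426, minus strand) was measured at 870, 929 and 940 for WT and 991, 918 and 968 for KO microglia. The macrophage libraries gave 595, 586 and 608 for WT and 1165, 833 and 918 for KO. WT macrophages were thus the group that stood apart, below all other libraries. Cmklr1 rose by 0.69 ± 0.10 in KO macrophages (limma, adjusted p = 0.000104). In microglia the difference was 0.07 (95% interval -0.14 to 0.29, limma adjusted p = 0.619). The interaction was 0.62 ± 0.14 (limma, adjusted p = 0.00509). Cmklr1 was 0.61 ± 0.10 lower in WT macrophages than in WT microglia (limma, adjusted p = 0.000186). Between the KO groups the difference was 0.01 (95% interval -0.21 to 0.22, limma adjusted p = 0.985).

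Ccrl2 (ENSMUSG00000043953, chromosome 9, 111054486 to 111057519, minus strand) showed no called difference in any comparison. Microglia gave 182, 198 and 315 for WT and 276, 220 and 245 for KO. Macrophages gave 223, 275 and 253 for WT and 266, 200 and 203 for KO. All groups overlapped. The KO against WT difference was 0.13 (95% interval -0.25 to 0.51, limma adjusted p = 0.611) in microglia and -0.17 (-0.55 to 0.21, limma adjusted p = 0.497) in macrophages, so changes within those bounds are possible.

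Cxcr3 and Ccr6, receptors best known from lymphocytes, were close to the limit of detection. Cxcr3 (ENSMUSG00000050232, chromosome X, 101731535 to 101734269, minus strand), which binds Cxcl9 and Cxcl10, was covered by 7, 0 and 0 reads in WT microglia, against 14, 10 and 12 with the KO. WT macrophages had 17, 15 and 21 reads and KO macrophages 23, 28 and 29. WT microglia thus held fewer reads than any other group in each library. As normalized counts, the groups averaged 2.06 ± 3.56, 11.1 ± 2.32, 17.3 ± 1.79 and 27.4 ± 8.39 in that order. Cxcr3 rose by 2.63 ± 0.61 in KO microglia (limma, adjusted p = 0.00239) and was 3.24 ± 0.61 higher in WT macrophages than in WT microglia (limma, adjusted p = 0.000545). The KO difference in macrophages was 0.60 ± 0.61 (limma, adjusted p = 0.485). The interaction was -2.03 ± 0.86 (limma, adjusted p = 0.0968), and it was called with voom weights (-2.52, adjusted p = 0.0425) and without WT microglia replicate 1, which held all 7 reads of its group (-2.98, adjusted p = 0.00114). The difference between KO macrophages and KO microglia, 1.21 ± 0.61 (limma, adjusted p = 0.257), was called without that library too (adjusted p = 0.0449).

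Cxcr3 is typical of T and NK cells, whose markers were low. All 8 listed were in the table and only Cd4 passed the filter, and their summed level was 1.76 to 3.87 for WT and 15.7 to 28.1 for KO microglia, then 3.81 to 9.10 for WT and 48.0 to 114 for KO macrophages. Most of that was Cd4, which some macrophages also express, at 15.7 ± 6.40 in KO microglia and 74.4 ± 36.5 in KO macrophages. The T cell receptor subunit gene Cd3e stayed at or below 2.66 on average, and Trac was at 0 reads in all groups but KO macrophages. Cxcr3 itself was not called between KO microglia and WT macrophages (-0.61 ± 0.61, limma, adjusted p = 0.470). The part of T and NK cells in the Cxcr3 values was not tested.

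Ccr6 (ENSMUSG00000040899, chromosome 17, 8236043 to 8257141, plus strand), the receptor for Ccl20, did not pass the filter on low values. Microglia gave 6, 13 and 5 reads for WT and 1, 0 and 0 for KO, and macrophages 5, 6 and 1 for WT and 0, 2 and 2 for KO. The most reads were thus in WT microglia, where replicate 2 held 13 of 24. The ratio of WT to KO was 27.4 in microglia (exact 95% binomial counting interval 4.46 to 1125) and 3.06 in macrophages (0.928 to 13.02). Such intervals hold the counting error alone, because reads that carry no molecular identifier need not be independent. With no filter, Ccr6 was called lower in KO microglia (limma, adjusted p = 0.00480).

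**Figure D1:**
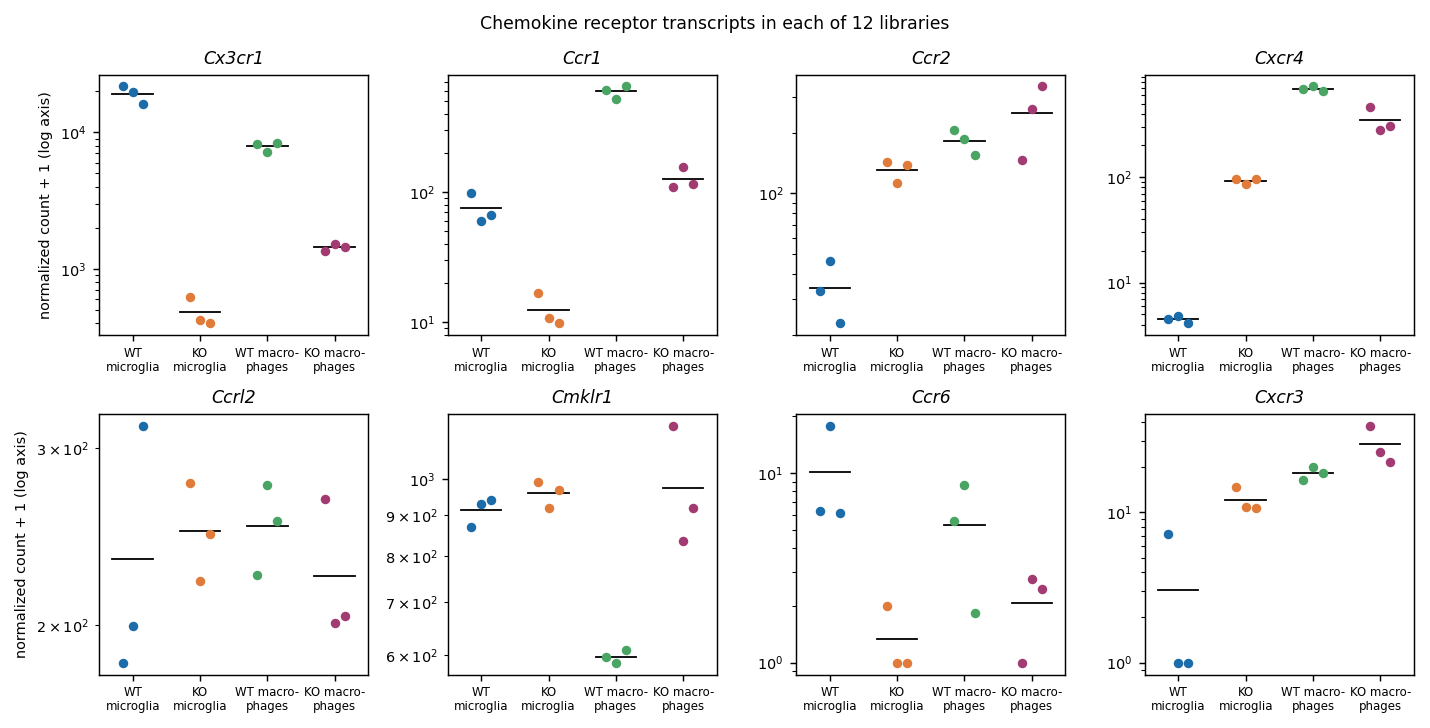
Normalized count + 1 of each receptor gene in the 12 libraries on log axes that differ between panels; points are libraries and bars are group means of 3. Cx3cr1 drops from 19192 to 481 on average between WT and KO microglia, Cxcr4 climbs from 3.5 to 91.8 there, and Cmklr1 is lowest in WT macrophages at 596.

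The receptors were then counted by comparison. In KO against WT microglia, 3 of 7 tested were higher (Ccr2, Cxcr4, Cxcr3) and 2 lower (Cx3cr1, Ccr1), where 21.9% of all tested genes were higher and 20.6% lower. In macrophages, 1 was higher (Cmklr1) and 3 lower (Cx3cr1, Ccr1, Cxcr4), against 16.0% and 15.4% of all genes, that is 2001 and 1933 genes. With scaling to library totals the latter split was 1620 and 2339. In WT macrophages against WT microglia, 4 were higher (Ccr1, Ccr2, Cxcr4, Cxcr3) and 2 lower (Cx3cr1, Cmklr1), against 19.2% and 20.2%, or 2398 and 2532 genes, and 2700 and 2089 with scaling to library totals. In KO macrophages against KO microglia, 3 were higher (Cx3cr1, Ccr1, Cxcr4) and none lower, against 5.45% and 5.05%. The interaction was called upward for Cx3cr1 and Cmklr1 and downward for Ccr2 and Cxcr4, where 25.8% of all tested genes had a called interaction.

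The median log2 difference of the 7 tested receptors was 0.13 in KO microglia and -0.17 in KO macrophages, beside medians of -0.01 and 0.00 over all tested genes. For WT macrophages against WT microglia it was 2.48 beside -0.00, and for KO macrophages against KO microglia 1.21 beside -0.00. With members moving both ways, these medians sum up little of the pattern. The comparisons share groups: WT microglia, for example, enter both the KO comparison and the WT origin comparison.

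**Figure D2:**
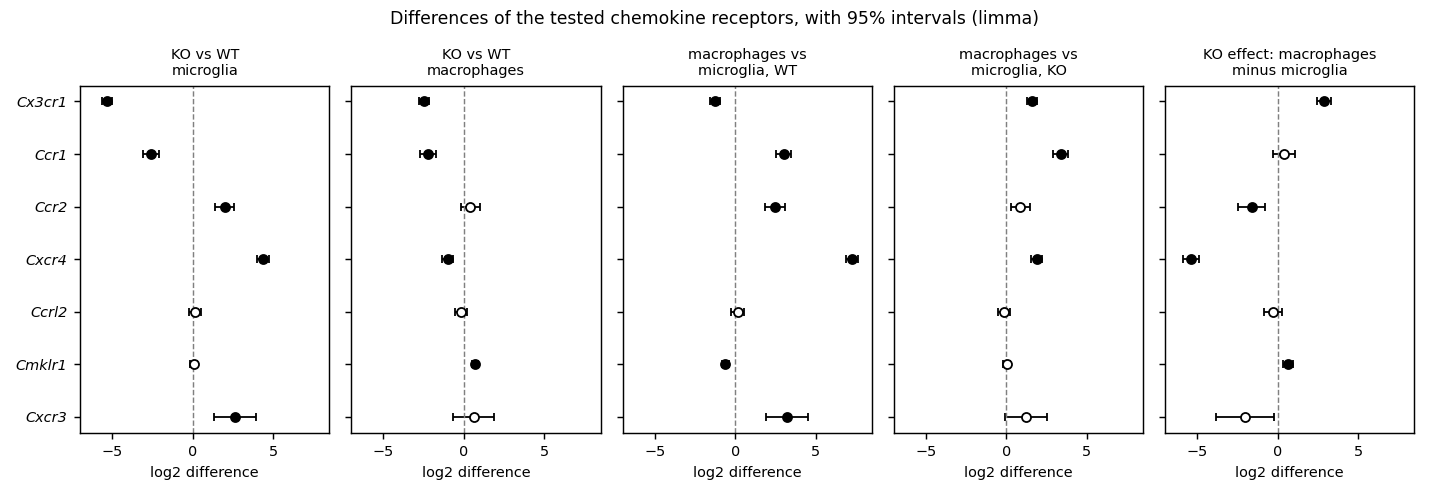
Log2 differences of the 7 tested receptor genes in 5 comparisons, with 95% intervals from limma; filled points passed an adjusted p of 0.05. Cxcr4 lies at 4.37 in KO microglia and -1.02 in KO macrophages, Cx3cr1 is below 0 in both at -5.34 and -2.45, and Ccrl2 is open in every panel.

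Levels were compared between genes after division by the merged length of all annotated exons of a gene, which can exceed that of its expressed transcript. The mean per-kilobase levels of the 8 receptors were summed per group. Cx3cr1 made up 91.5% of that sum in WT microglia and 66.2% in WT macrophages, but 18.9% in KO microglia and 32.7% in KO macrophages. In KO microglia the top rank was held by Cmklr1, at 281 normalized counts per kb and 49.9% of the sum, with Cx3cr1 at 107 and Ccrl2 at 95.1 per kb. Cxcr4 took 14.3% in WT macrophages, 19.6% in KO macrophages and 9.01% in KO microglia. These shares are descriptions of group means, and a share can grow because another gene shrank: Cmklr1 itself was at 268 per kb in WT microglia.

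**Figure D3:**
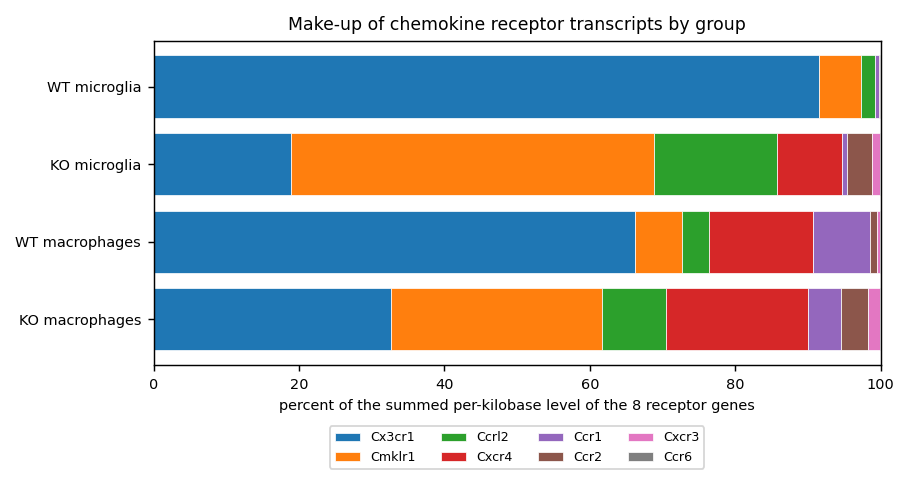
Share of each gene in the summed per-kilobase level of the 8 receptor genes, as stacked bars for the 4 group means. The Cx3cr1 bar takes 91.5% in WT microglia and 18.9% in KO microglia, where Cmklr1 takes 49.9%.

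Among other attractant receptors, 10 of 14 were tested. In KO microglia 5 rose and 3 fell, where 21.9% of all tested genes were higher and 20.6% lower, and in KO macrophages 6 rose and 4 fell, beside 16.0% and 15.4%. Fpr1 and Fpr2 reached the filter's normalized count of 10 in KO libraries only, so their rise was partly set by the filter. C5ar1, a receptor for complement C5a, rose in microglia (257 ± 34.7 to 1397 ± 174) and in macrophages (100.1 ± 28.3 to 1304 ± 360) (limma, adjusted p = 6.72e-08 and 3.99e-09). The ADP receptor gene P2ry12, which guides microglial processes to injury, fell from 12319 ± 2160 to 298 ± 29.8 and from 1353 ± 89.8 to 423 ± 23.8 (limma, adjusted p = 2.04e-14 and 4.88e-08). The formyl peptide receptor Fpr1 rose to 8.25 ± 0.528 in KO microglia and 41.3 ± 23.8 in KO macrophages, from 0.429 and 0.972 (limma, adjusted p = 0.000747 and 2.66e-05). C3ar1, a receptor for complement C3a, rose in microglia (1219 ± 132.6 to 3184 ± 265) and in macrophages (1986 ± 280 to 2569 ± 290) (limma, adjusted p = 1.19e-07 and 0.0247).

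Most of the tested ligands of the receptors were higher in KO cells. Of 17 listed, 12 were tested, and in KO microglia 7 rose and 1 fell (median log2 1.57, beside -0.01 over all tested genes, of which 21.9% were higher and 20.6% lower). In KO macrophages 8 rose and none fell (median 1.37, beside 0.00, with 16.0% and 15.4% of all genes called). Ccl8 and Cxcl12 reached the filter's normalized count in KO libraries only. Ccl7 and Cxcl9 reached it in too few WT libraries to pass without KO libraries. The called rises of these ligands were thus partly set by the filter, and the counts and medians include them. The Ccr2 ligand Ccl7 had 0.881, 0 and 8.28 in WT microglia, against 297, 293 and 307 with the KO. In macrophages it went from 12.7, 3.81 and 10.7 to 445, 241.7 and 213. KO libraries thus lay far above WT libraries in both origins (log2 6.85 ± 0.61 and 4.96 ± 0.61, limma adjusted p = 2.09e-07 and 1.95e-05). Ccl8, another CC chemokine, was at 0 reads in WT microglia and 101 ± 14.4 in KO microglia, at least 96.7-fold higher when 3 reads over the WT group are taken as the floor. In macrophages it rose from 2.34 ± 2.28 to 148 ± 49.9 (limma, adjusted p = 5.41e-07). Ccl2 (120 to 264 in microglia and 91.0 to 304 in macrophages on average) and Ccl12 (114 to 670 and 275 to 571) also rose in both; these 2 were named after their values were seen.

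Other ligands differed by origin. The Ccr1 ligand Ccl9 fell from 289 ± 101 to 91.1 ± 7.90 with the KO in microglia but rose from 22.0 ± 3.30 to 131 ± 33.5 in KO macrophages (limma interaction 4.09 ± 0.35, adjusted p = 5.85e-07). Ccl6, also a Ccr1 ligand, rose from 244 ± 58.1 to 370 ± 35.7 and from 49.97 ± 5.68 to 459 ± 165 (limma interaction 2.50 ± 0.30, adjusted p = 1.90e-05). The Cxcr3 ligand Cxcl10 rose from 20.8 ± 8.82 to 150 ± 26.1 in KO microglia (limma, adjusted p = 2.72e-06) and stood at 44.2 ± 14.1 and 69.2 ± 16.1 in WT and KO macrophages (limma, adjusted p = 0.131). The Cxcr4 ligand Cxcl12 was low, at 4.09 ± 1.11 and 4.41 ± 1.80 in microglia, and rose from 1.43 ± 0.968 to 21.8 ± 7.85 in macrophages (limma, adjusted p = 0.000128). Fractalkine (Cx3cl1) and chemerin (Rarres2), ligands of Cx3cr1 and Cmklr1, did not pass the filter.

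**Figure D4:**
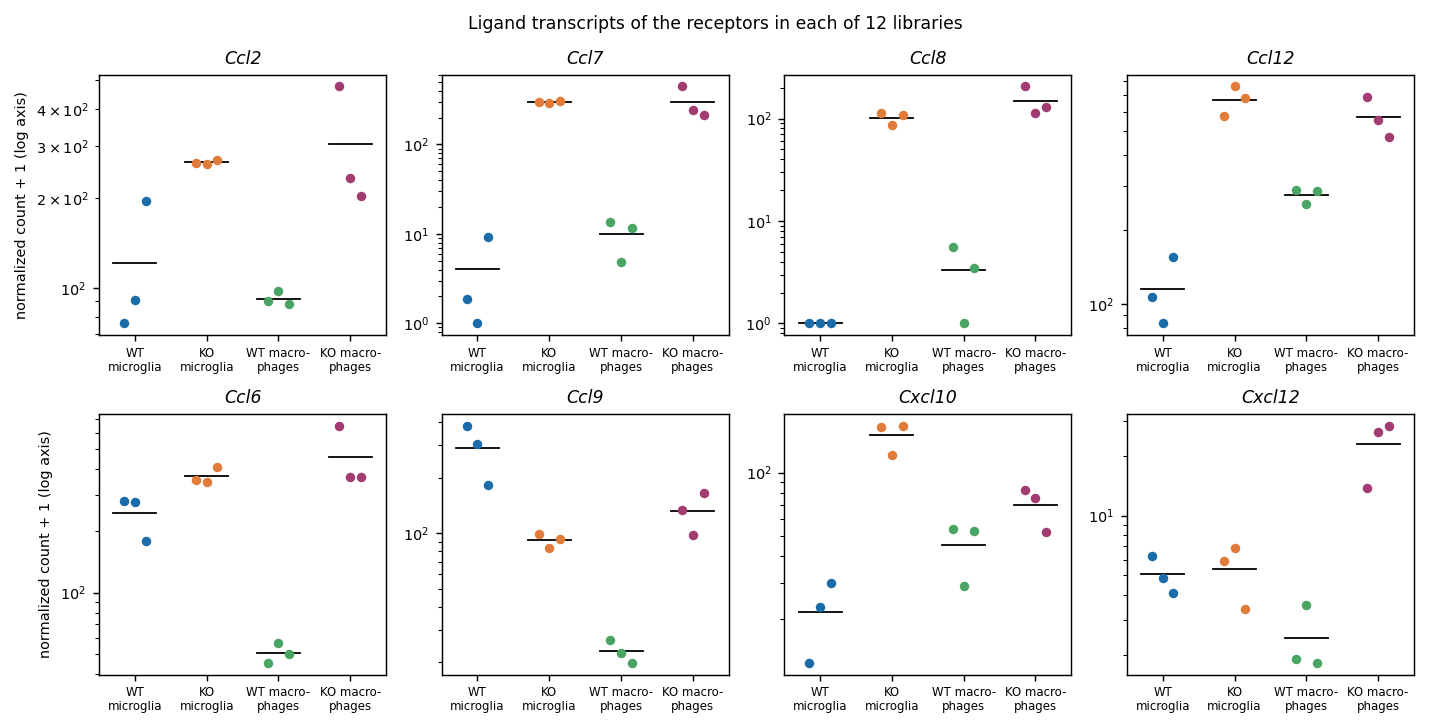
Normalized count + 1 of 8 ligand genes in the 12 libraries on log axes that differ between panels; points are libraries and bars are group means of 3. Ccl7 averages 3.05 and 9.09 in the WT groups and 299 and 300 in the KO groups, while Ccl9 is highest in WT microglia at 289.

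Genes that carry or end the receptors' signal moved both ways. All 24 listed were tested, and 8 rose and 10 fell in KO microglia (median log2 0.06), while 9 rose and 8 fell in KO macrophages (median 0.12). Of all tested genes, 21.9% were higher and 20.6% lower in KO microglia, and 16.0% and 15.4% in KO macrophages. Elmo1, which couples receptors to the Rac activator Dock2, fell in microglia (3421 ± 278 to 733 ± 36.3) and in macrophages (2680 ± 66.5 to 914 ± 173) (limma, adjusted p = 3.69e-10 and 9.12e-08). Pik3r5, a regulatory subunit of phosphoinositide 3-kinase gamma, fell from 1055 ± 35.7 to 277 ± 48.6 and from 548 ± 37.5 to 370 ± 2.23 (limma, adjusted p = 7.71e-10 and 0.00100). Rac2, a small GTPase of leukocyte movement, rose from 148 ± 14.0 to 313 ± 45.4 in KO macrophages (limma, adjusted p = 6.65e-06). Rgs10, which shortens G protein signals, fell in KO microglia (1675 ± 39.8 to 617 ± 27.3) and in KO macrophages (753 ± 31.8 to 589 ± 21.3) (limma interaction 1.09 ± 0.10, adjusted p = 1.28e-06). The receptor kinase gene Grk6 was 1.21 ± 0.09 higher in WT macrophages than in WT microglia (limma, adjusted p = 7.44e-08).

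Position on the chromosome was described last. Ccrl2, Cx3cr1, Ccr1 and Ccr2 lie on chromosome 9, as does the floxed Tgfbr2, 3.73 Mb from Cx3cr1 and 5.03 Mb from Ccrl2. Between these neighbours, Cx3cr1 fell in both KO groups and Ccrl2 was not called in either. Within 200 kb of Cmklr1 lie the microglial genes Tmem119, at 143 kb, and Selplg, at 168 kb. Tmem119 went from 5681 ± 613 to 2.17 ± 0.695 and Selplg from 8227 ± 602 to 688 ± 22.4 between WT and KO microglia, whereas Cmklr1 stood at 913 ± 37.7 and 959 ± 37.1. Of 10 tested genes within 200 kb of Cx3cr1, 1 rose and 1 fell in KO microglia, beside 21.9% and 20.6% of all tested genes. For Cmklr1, 4 of 7 tested neighbours fell there and none rose, and for Ccr6 4 of 5 fell and none rose. For Cxcr3, 2 of 3 rose and none fell, and for Ccrl2 1 of 4 rose and none fell. Ccr1, Ccr2 and Cxcr4 had only 2, 2 and 1 tested neighbours. In KO macrophages 4 fell and none rose for both Cmklr1 and Ccr6, where 15.4% of all tested genes fell.

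Genes whose log2 values ran most like each receptor's over the 12 libraries were Gna15, Dtx4 and Ubash3b for Cx3cr1 (Pearson r 0.998, 0.996 and 0.995), and Galnt3, Tbxas1 and Osbpl3 for Ccr1 (0.978, 0.972 and 0.970). For Ccr2 they were Ccdc88a, Dennd1a and Trerf1 (0.985, 0.975 and 0.966), for Cxcr4 Apobec1, Bcar3 and Cyp4f18 (0.990, 0.988 and 0.988), and for Cmklr1 Rab5c, Fcgr3 and Zfp703 (0.967, 0.966 and 0.961). Ccrl2 had weaker matches, with Nfkbia, Rnpepl1 and Nr4a1 at 0.847, 0.817 and 0.781. The libraries share groups, so these values describe the pattern over 4 group means more than 12 independent points. Gna15 averaged 1235, 86.2, 665 and 195 in WT microglia, KO microglia, WT macrophages and KO macrophages. Its order was that of Cx3cr1, which follows from how Gna15 was picked.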

How the data were processed

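RNA-seq libraries were made from total RNA with a stranded pico-input kit, from inputs above 100 pg with RNA integrity numbers of 7.1 to 10, per the labels' protocols. STAR, bcl2fastq and CASAVA and the build GRCm38 are named per the submitters' processing notes. Tool versions, the read counter and its strand setting: not given in the sources used here. Reads of genes that overlap, on either strand, may therefore not be told apart. The authors deposited log2 values. After back-transformation, 100% of 310848 values were whole reads times a constant of the library (within 0.01 reads, at most 0.000888 off). The deposited log2 unit is therefore log2(gene reads / library size factor + 1), with a pseudocount of 1. Symbols, coordinates and lengths came from GENCODE mouse annotation on GRCm38 (25730 identifiers matched, 174 did not).

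The test took genes whose normalized count reached 10 in 3 or more of the 12 libraries (12519 did, 13385 did not), using limma 3.58.1 in R 4.3.3 (lmFit, eBayes with trend), 1 mean per group, 8 residual degrees of freedom, and Benjamini-Hochberg adjustment over all tested genes. Python 3.11.15 with scipy 1.17.1, pandas 2.3.3, numpy 2.4.6 and matplotlib 3.10.9 was used for the rest. The fit was also run on simulated counts. These had the same spread setting for every gene and far fewer changed genes than were called here. That run therefore does not measure the error rate in these data. Alternatives were other filters, pseudocounts, scalings, voom, robust eBayes, Ddx3y as a covariate, fits on pairs of groups and leaving out each library.

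The receptors, the 3 gene lists and the marker lists were chosen with earlier results of these data known; a further list is not reported here. Named were all 8 receptors in each comparison, Tgfbr2, Adgre1, Itgam and Ly6c2, up to 3 called genes per list and comparison with the largest change and a group mean of at least 20, tested genes within 200 kb of a receptor, and the 3 most correlated genes of each receptor with a group mean of at least 100. Adgre1 (F4/80) averaged 1409, 3862, 2598 and 3792 and Itgam (CD11b) 7457, 1625, 2997 and 1593 in WT microglia, KO microglia, WT macrophages and KO macrophages. Summed levels of the other marker lists ran, over all libraries, from 18436 to 42385 for myeloid cells of the gate, 50.1 to 152 for dendritic cells, 0 to 13.7 for neutrophils and 9.88 to 62.7 for B cells.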

Additional observations from a re-analysis of the deposited data

Results flagged for a closer look

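The KO effect differed between macrophages and microglia for 4 receptors by the interaction test of limma. For Cx3cr1 the KO effect in macrophages minus that in microglia was 2.88 on the log2 scale. It was -1.62 for Ccr2, -5.39 for Cxcr4 and 0.62 for Cmklr1. Of all tested genes, 25.8% had a called interaction.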

How the results depend on the processing

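No paired analysis was possible because the labels give no replicate numbers. Single-library removals left the counts of receptors called within 1.5 times, except that KO against WT macrophages had 1 to 2 higher, with Ccr2 added without KO macrophage replicate 1. Over all genes, those lower in KO macrophages than in KO microglia numbered 632, then 408 with Ddx3y as a covariate and 398 to 719 with 1 library left out (398 without KO microglia replicate 1). Directions turned only for uncalled differences near 0. Ccrl2 was at -0.022 in KO against WT microglia without WT microglia replicate 1 (leave-one-out range -0.022 to 0.37) and at -0.0041 in WT macrophages against WT microglia (range -0.0041 to 0.39). Cmklr1 in KO macrophages against KO microglia was at -0.011 with voom, -0.055 with Ddx3y as a covariate, -0.025 without KO microglia replicate 2 and -0.13 without KO macrophage replicate 1 (range -0.13 to 0.11). The causes were not tested. Of the remaining values of single genes, 410 with 1 library left out and 337 under other alternatives stayed on their side of the threshold, 6 and 4 gained a call and none lost one. That tally leaves out the step of Ccr1 between KO macrophages and WT microglia, whose losses stand beside it. Cxcr3 and Ccr6 are limited by depth, at no more than 29 reads in any library. So is Cxcr4 in WT microglia, at no more than 4 reads.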
